A study of Mus musculus with 6 samples.

Results

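The genes described here are 10 that drive or restrain passage from G1 into S phase: the D cyclins Ccnd1, Ccnd2 and Ccnd3, the E cyclins Ccne1 and Ccne2, the cyclin-dependent kinases Cdk2, Cdk4 and Cdk6, and the kinase inhibitors Cdkn1b (p27) and Cdkn2c (p18). They were taken by symbol, with earlier results of these data known, and all 10 were found among the 31017 genes of the count table. RNA was sequenced from mouse Th17 cells, helper T cells that secrete interleukin 17, which had been differentiated in culture. There were 3 control libraries from cells of genotype WT and 3 KO libraries from cells deficient in RTF1, a protein that works with RNA polymerase II and promotes ubiquitination of histone H2B. Both groups were labelled Th17 and no treatment distinguishes them in the labels. The allele, any Cre driver, strain and age are not given in the sources used here, nor is it stated that the 3 samples of a group came from separate animals, so p-values measure the spread between these samples.

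In T cells, activation signals raise the D cyclins, which bind CDK4 or CDK6 and begin to phosphorylate the retinoblastoma (RB) protein. RB then releases E2F factors, which induce the E cyclins. Cyclin E with CDK2 completes RB phosphorylation and starts DNA replication. Inhibitors of the INK4 family such as p18 bind CDK4 and CDK6, while p27, of the CIP/KIP family, binds cyclin-CDK complexes and restrains CDK2 in resting T cells.

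Loss of RTF1 was accompanied by a split within this group of genes. Transcripts of 2 D cyclins were higher in KO cells, Ccnd1 by 6.52-fold from a very low level and Ccnd2 by 1.76-fold from a high one. The rise of Ccnd1 is uncertain, because its exons overlap those of Oraov1, which rose as well. Transcripts of both E cyclins, all 3 kinases and Cdkn2c were lower, to between 0.461 and 0.679 of the control level. Ccnd3 and Cdkn1b were not called. A gene was called when the adjusted p-value of edgeR's quasi-likelihood test, corrected by the Benjamini-Hochberg method over all 14268 tested genes, lay under 0.05. By this rule 8 of the 10 genes were called, 2 higher and 6 lower, against a background of 46.1% called among all tested genes (23.2% higher, 22.9% lower). In 7 of the 10 the 3 KO libraries all lay on one side of the 3 control libraries, as they did for 57.9% of all tested genes. The median log2 fold change was −0.60 for the 10 genes and 0.013 for all tested genes.

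**Figure D1:**
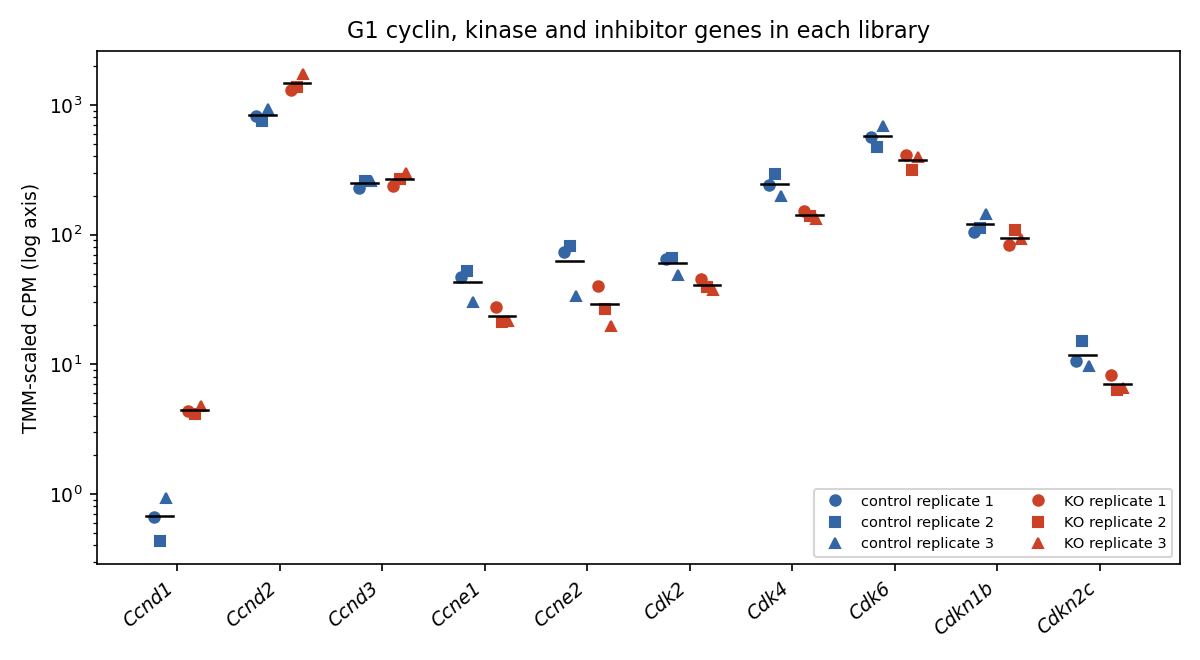
Level of each of the 10 genes in each library, in TMM-scaled CPM (log axis), with controls in blue, KO in red, 1 symbol per replicate number and a bar at the group mean. The KO points of Ccnd1 and Ccnd2 all lie above the control points, and for Ccne2 control replicate 3 lay below KO replicate 1.

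The libraries held 16489813 to 51271226 counts. Rtf1 itself read 94.0, 91.2 and 88.3 CPM (counts scaled by library size and TMM factors) in control replicates 1, 2 and 3, and 45.3, 30.4 and 26.2 CPM in KO replicates 1, 2 and 3. It was thus lower in all KO libraries but not absent (log2 fold change −1.42, SE 0.191, edgeR adjusted p = 0.000755). The T helper markers Cd3e, Cd3g, Cd4, Cd5 and Trac summed to 1460 to 1699 CPM in control and 1307 to 1524 CPM in KO, but within the list Cd3e and Cd3g were called higher and Cd4 and Cd5 lower. Th17 markers summed to 2253 to 2862 and 718 to 1472 CPM, with 5 of 7 called lower. Markers of B cells, myeloid cells, erythroid cells and fibroblasts each summed to under 4 CPM in every library, but those of myeloid cells lay at 0.784 to 0.790 CPM in control and 1.92 to 3.61 CPM in KO. CD8 T and NK cell markers summed to 6.93 to 10.5 and 6.49 to 11.8 CPM, with Ncr1 and Klrb1c at 0 counts. Of the 3 that were tested 1 was called higher. Most of the sum was Cd8b1, while Eomes read 0.0608, 0.165 and 0.0713 CPM in control replicates 1, 2 and 3. In KO replicates 1, 2 and 3 Eomes read 1.33, 1.095 and 2.24 CPM. The part of these cells in the results was not tested. Both libraries numbered 3 carried Y-linked counts (5147 or more over 4 genes), which the others lacked (at most 3), so results are also given for the libraries numbered 1 and 2 alone. In RNA from whole cultures, fewer cells in a phase of the cycle and less RNA per cell cannot be told apart.

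The promoters of the 3 kinases are shown here as examples. The transcripts of all 3 fell in KO cells, as did those of Ccne1 and Cdkn2c, whose windows were searched but are not printed. Any part of the motifs in these changes was not tested. RefSeq sequences (build GRCm38) from 250 bases before to 50 bases after the gene start were found for 7 of the 10 genes, in 9 windows. Each was searched on both strands for the E-box CACGTG, bound by MYC and related factors, for 4 forms of the E2F site (TTTCCCGC, TTTCGCGC, TTTGCCGC and TTTGGCGC), for the GC box GGGCGG, for the cyclic AMP response element TGACGTCA, and for TATAAA and CCAAT. None of these motifs contains another. The 250 bases before the start are printed 5′ to 3′ on the gene's strand, with E-boxes and E2F sites in capitals. The stretch of Cdk4 lies at chr10:127063285-127063534 (plus strand), that of Cdk2 at chr10:128705052-128705301 (minus strand) and that of Cdk6 at chr5:3343643-3343892 (plus strand). The gene spans given below are from GENCODE M21, whose starts differ from those of RefSeq. For Cdk6 that span begins at 3341485, so the stretch printed here lies inside it and not before it.
Cdk4: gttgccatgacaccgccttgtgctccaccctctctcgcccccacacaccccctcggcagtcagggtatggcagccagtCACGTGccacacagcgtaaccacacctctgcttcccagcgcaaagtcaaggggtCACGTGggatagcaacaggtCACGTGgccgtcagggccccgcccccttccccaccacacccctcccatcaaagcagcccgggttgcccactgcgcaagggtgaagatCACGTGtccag
Cdk2: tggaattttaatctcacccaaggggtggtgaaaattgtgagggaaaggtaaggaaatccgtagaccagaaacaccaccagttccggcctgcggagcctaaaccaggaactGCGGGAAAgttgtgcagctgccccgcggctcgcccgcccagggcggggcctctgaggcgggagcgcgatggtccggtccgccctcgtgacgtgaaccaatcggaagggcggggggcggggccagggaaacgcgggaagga
Cdk6: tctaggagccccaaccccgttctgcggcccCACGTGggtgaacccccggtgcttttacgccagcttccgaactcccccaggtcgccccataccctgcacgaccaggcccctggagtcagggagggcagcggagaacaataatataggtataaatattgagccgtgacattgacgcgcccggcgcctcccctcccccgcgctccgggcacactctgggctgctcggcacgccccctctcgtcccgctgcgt

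The Cdk4 promoter held 4 copies of CACGTG, which start 172, 118, 98 and 11 bases before the gene start. A CACGTG was found in 7.15% of the 32851 mouse promoter windows of this length and in 9.74% of the 13223 windows of tested genes. There were 4 or more copies in 0.0244% and 0.0378% of them. That cut-off was taken from the Cdk4 window, which is itself among the 8 windows that reach it. Cdk6 held 1 copy and Cdkn2c held 1, the latter after the gene start in the more downstream of its windows. The Cdk2 promoter held 1 E2F site, which reads GCGGGAAA on the gene's strand, where 2.26% of all windows and 3.85% of those of tested genes held any of the 4 forms. No E2F form was found in the windows of Ccnd3, Ccne1, Cdk4, Cdk6, Cdkn1b and Cdkn2c, which says only that these letters are not within this stretch. A GC box stood in 7 of the 9 windows, against 35.7% of all windows and 59.9% of those of tested genes. CCAAT stood in 4 of the 9 (37.4% and 37.7%), TATAAA in that of Cdk6 alone (13.6% and 7.43%) and TGACGTCA in none (1.79% and 2.97%).

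Among the D cyclins, the sensors of mitogen and antigen receptor signals, Ccnd2 was the main transcript. Ccnd2 (chromosome 6, 127125162 to 127152193, minus strand) read 828, 746 and 929 CPM in control replicates 1, 2 and 3, and 1307, 1363 and 1728 CPM in KO replicates 1, 2 and 3. The lowest KO library lay well above the highest control library. The log2 fold change was 0.81 (SE 0.155, edgeR adjusted p = 0.00337), and the call held in all 15 alternative fits, with log2 fold changes from 0.68 to 0.90. With the libraries numbered 1 and 2 alone it was 0.76 (adjusted p = 0.00459).

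Ccnd1, which many adherent cell types use and lymphocytes express little, rose from a trace. Ccnd1 (chromosome 7, 144929931 to 144939925, minus strand) had 11, 21 and 39 counts in control replicates 1, 2 and 3, against 115, 154 and 94 counts in KO replicates 1, 2 and 3. Scaled to CPM, the controls stood at 0.669, 0.433 and 0.927, the KO libraries at 4.37, 4.11 and 4.78. All KO libraries exceeded all control libraries (log2 fold change 2.70, SE 0.353, edgeR adjusted p = 0.000679), and the call held in all 15 alternative fits (2.41 to 3.01). Its exons overlap those of Oraov1 on the opposite strand over 23.4% of their length, and Oraov1 rose as well, by a log2 fold change of 1.17 (15.2 ± 1.51 CPM in control cells, 33.95 ± 2.13 CPM in KO cells, SD, n = 3; edgeR adjusted p = 0.000446). Whether counting used the strand is not given in the sources used here, so reads of the overlap could belong to either gene, and Ccnd1 is uncertain.

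Ccnd3, the D cyclin that immature thymocytes depend on, was not called. Ccnd3 (chromosome 17, 47505051 to 47599691, plus strand) read 229, 258 and 258 CPM in control replicates 1, 2 and 3, against 236, 266 and 301 CPM in KO replicates 1, 2 and 3, and the groups overlapped. Its log2 fold change was 0.11 (SE 0.127, edgeR adjusted p = 0.506). Without control replicate 1 it was −0.014.

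Divided by exon length, the D cyclins made up different shares in the 2 groups. Per kilobase of exon, their summed level was 114, 109 and 128 in control replicates 1, 2 and 3, against 167, 176 and 219 in KO replicates 1, 2 and 3. Ccnd2 accounted for 75.6% ± 2.37 of it in control and 83.2% ± 0.814 in KO (SD, n = 3), and Ccnd3 for 24.2% ± 2.41 and 16.3% ± 0.806. Ccnd1 made up 0.121% ± 0.0345 and 0.505% ± 0.0469. Each of these 3 shares separated the groups without overlap. Each gave p = 0.1 in a two-sided exact permutation test, the smallest value that 3 libraries against 3 allow (0.167 after adjustment over 5 shares). Because the 3 shares make up a whole, they are not separate results, and the level of Ccnd3 itself was not called. These shares use all annotated exons. Dividing by the longest transcript gave a difference in the Ccnd2 share of 9.52 in place of 7.51 percentage points.

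**Figure D2:**
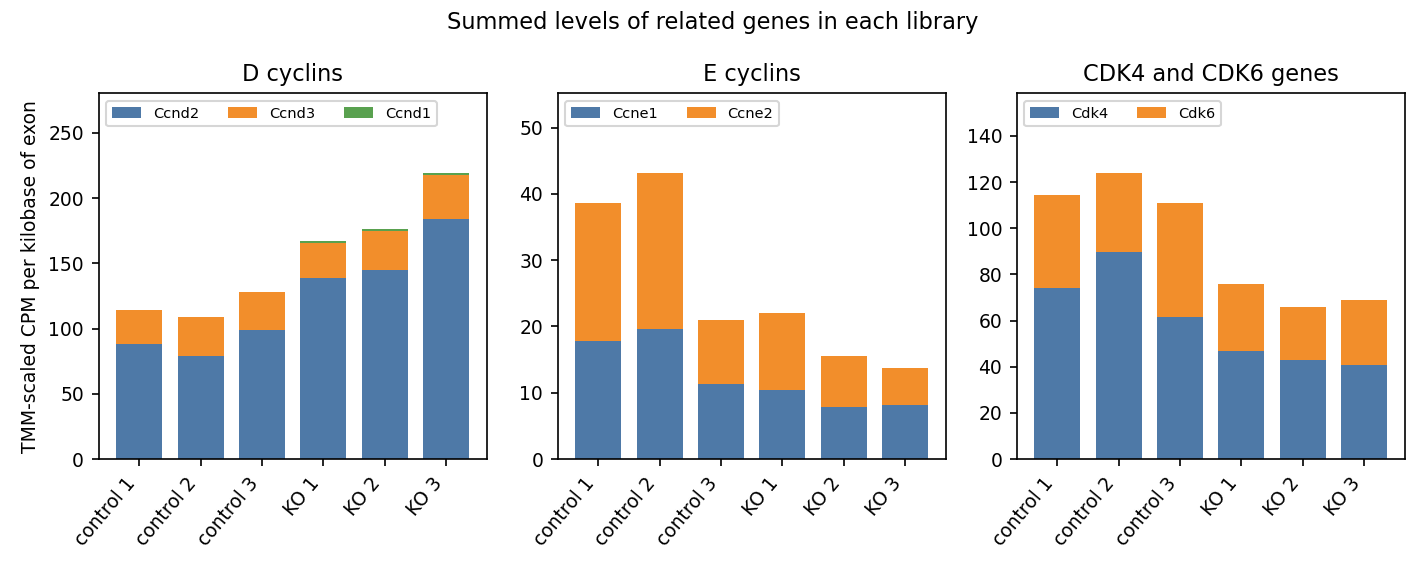
Levels per kilobase of exon in each library, stacked for the D cyclins, the E cyclins, and Cdk4 with Cdk6 (axes start at 0 and differ between panels). The D cyclin sum reached 167 to 219 in KO against 109 to 128 in control, while the sum of Cdk4 and Cdk6 reached 65.7 to 75.9 in KO against 111 to 124 in control.

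The E cyclins, which activate CDK2 at the start of S phase, were lower in KO cells. Ccne1 (chromosome 7, 38097984 to 38107534, minus strand) read 47.4, 52.2 and 30.1 CPM in control replicates 1, 2 and 3, against 27.8, 21.02 and 21.7 CPM in KO replicates 1, 2 and 3. The groups did not overlap, but control replicate 3 lay close to KO replicate 1. The log2 fold change was −0.88 (SE 0.216, edgeR adjusted p = 0.0104), and −0.80 without KO replicate 2, where the call was lost (adjusted p = 0.0508). The other 14 of 15 alternative fits kept the call. It was −0.86 with the replicate number as a block (adjusted p = 0.0021) and −1.04 with the libraries numbered 1 and 2 alone (adjusted p = 0.000729).

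Ccne2, which encodes the second E cyclin, spread more widely. Ccne2 (chromosome 4, 11191351 to 11204779, plus strand) read 73.0, 82.1 and 33.8 CPM in control replicates 1, 2 and 3, against 40.4, 26.7 and 19.7 CPM in KO replicates 1, 2 and 3. Control replicate 3 lay below KO replicate 1, so the groups overlapped. The log2 fold change was −1.12 (SE 0.347, edgeR adjusted p = 0.0275). With the replicate number as a block it was −1.09 (SE 0.169, adjusted p = 0.000613). With the libraries numbered 1 and 2 alone it was −1.215 (adjusted p = 0.000539). The call was lost without control replicate 1 (adjusted p = 0.0718), control replicate 2 (0.101), KO replicate 2 (0.0919) or KO replicate 3 (0.0832), and without control replicate 3 the log2 fold change was −1.48 (adjusted p = 0.000963). Exons of Ints8 overlap 17.4% of its exon length on the other strand. Ints8 itself was not called (65.1 ± 8.09 CPM in control cells, 75.96 ± 9.66 CPM in KO cells, SD, n = 3).

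The 2 E cyclins contributed about equally, and their shares overlapped between the groups. Per kilobase, the Ccne1 share reached 48.5% ± 4.71 in control cells and 52.5% ± 5.997 in KO cells (SD, n = 3; two-sided exact permutation test without pairing, p = 0.5). It was higher in KO in each pair of equal replicate number, at 46.0, 45.5 and 53.9% in control replicates 1, 2 and 3, against 47.5, 50.8 and 59.1% in the KO libraries. The difference of 3.97 percentage points ran from 0.642 to 6.68 with 1 library left out, lowest without KO replicate 3 and highest without control replicate 3.

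Of the kinases, Cdk4, the partner of the D cyclins, separated the groups most clearly. Cdk4 (chromosome 10, 127063534 to 127067920, plus strand) read 240, 291 and 199.5 CPM in control replicates 1, 2 and 3, against 152, 140 and 132 CPM in KO replicates 1, 2 and 3. Every KO library lay below every control library. The log2 fold change was −0.79 (SE 0.151, edgeR adjusted p = 0.0034), and the call held in all 15 alternative fits (−0.97 to −0.65). Exons of Tspan31 on the opposite strand overlap 19.7% of its exon length, and Tspan31 changed in the other direction, by a log2 fold change of 0.62 (48.7 ± 4.92 CPM in control cells, 74.6 ± 4.90 CPM in KO cells, SD, n = 3; edgeR adjusted p = 0.00362).

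Cdk6, the second D cyclin partner and the longest of these genes at 189524 bases, fell as well. Cdk6 (chromosome 5, 3341485 to 3531008, plus strand) read 567, 477 and 690 CPM in control replicates 1, 2 and 3, against 409, 316 and 393 CPM in KO replicates 1, 2 and 3. The groups did not overlap (log2 fold change −0.63, SE 0.168, edgeR adjusted p = 0.0143). Without KO replicate 2 it was −0.52 and the call was lost (adjusted p = 0.0716), while the other 14 of 15 alternative fits kept it. The log2 fold change was −0.62 with the replicate number as a block (adjusted p = 0.00145). With the libraries numbered 1 and 2 alone it was −0.53 (adjusted p = 0.0314). Unlike the E cyclins and Cdk4, Cdk6 was highest in control replicate 3. The Cdk6 share of the Cdk4 and Cdk6 level per kilobase reached 35.8% ± 8.51 in control cells and 37.9% ± 3.28 in KO cells (SD, n = 3; two-sided exact permutation test, p = 0.8). The higher share in KO turned to a lower one, by 2.03 percentage points, without control replicate 2.

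Cdk2, the partner of the E cyclins, changed by the least of the called genes. Cdk2 (chromosome 10, 128697939 to 128705031, minus strand) read 65.0, 66.4 and 48.3 CPM in control replicates 1, 2 and 3, against 45.7, 39.2 and 37.1 CPM in KO replicates 1, 2 and 3. The groups did not overlap, with control replicate 3 closest to KO (log2 fold change −0.56, SE 0.155, edgeR adjusted p = 0.0172). With the replicate number as a block the log2 fold change was −0.55 (adjusted p = 0.00393). With the libraries numbered 1 and 2 alone it was −0.63 (adjusted p = 0.00394). The call was lost without control replicate 1 (adjusted p = 0.0571), control replicate 2 (0.056), KO replicate 2 (0.0703) or KO replicate 3 (0.063).

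**Figure D3:**
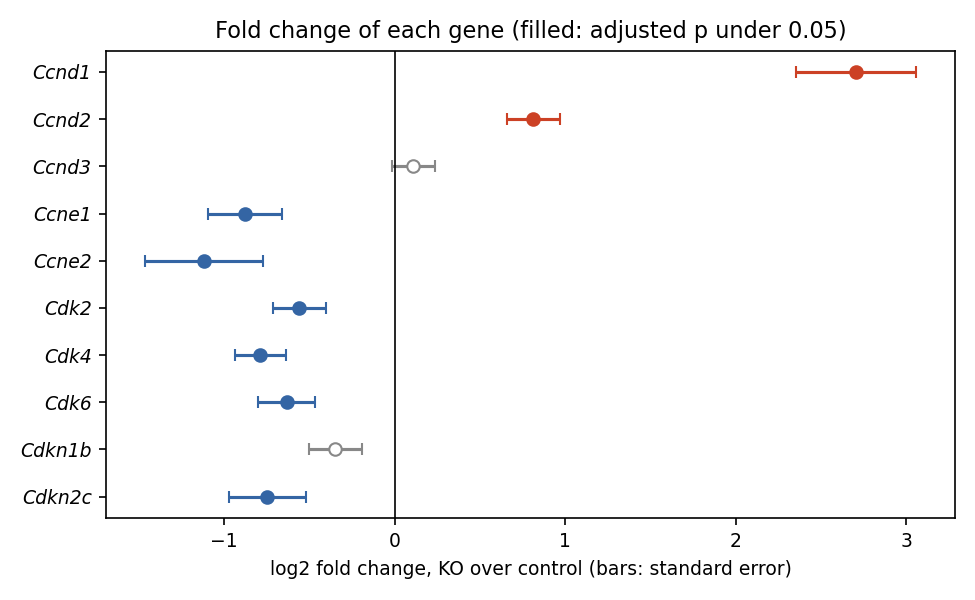
Log2 fold change of KO over control for each of the 10 genes with its standard error, filled where the adjusted p-value lies under 0.05 (red higher, blue lower in KO). Ccnd1 lies at 2.70 and Ccnd2 at 0.81, and the 6 genes called lower lie between −1.12 and −0.56.

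Of the inhibitors, Cdkn2c, which blocks CDK4 and CDK6, was lower in KO cells. Cdkn2c (chromosome 4, 109660876 to 109667189, minus strand) read 10.6, 15.1 and 9.69 CPM in control replicates 1, 2 and 3, against 8.20, 6.38 and 6.56 CPM in KO replicates 1, 2 and 3. The groups did not overlap (log2 fold change −0.75, SE 0.225, edgeR adjusted p = 0.0245). With the replicate number as a block the log2 fold change was −0.73 (adjusted p = 0.018). With the libraries numbered 1 and 2 alone it was −0.84 (adjusted p = 0.0178). The call was lost without control replicate 2 (adjusted p = 0.0753), KO replicate 2 (0.0928) or KO replicate 3 (0.0748).

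Cdkn1b, the p27 gene, was not called. Cdkn1b (chromosome 6, 134920401 to 134925513, plus strand) read 104, 111 and 144 CPM in control replicates 1, 2 and 3, against 82.9, 108 and 92.1 CPM in KO replicates 1, 2 and 3. KO replicate 2 lay within the control range, and control replicate 3 was the highest library. The log2 fold change was −0.35 (SE 0.154, edgeR adjusted p = 0.0948). It was called lower with the replicate number as a block (−0.34, adjusted p = 0.0469) and without control replicate 1 (−0.50, adjusted p = 0.0445), and it was −0.18 with the libraries numbered 1 and 2 alone (adjusted p = 0.356).

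Ordered by level per kilobase of exon, the control group ran from Ccnd2 (88.7 ± 9.73) through Cdk4 (74.999 ± 14.1), Cdk6 (41.3 ± 7.66), Ccnd3 (28.3 ± 1.90), Cdkn1b (26.3 ± 4.66), Ccne2 (18.0 ± 7.35), Ccne1 (16.2 ± 4.37), Cdk2 (9.64 ± 1.62) and Cdkn2c (4.39 ± 1.08) to Ccnd1 (0.144 ± 0.0524; all SD, n = 3, in CPM per kilobase). Neighbours in this order overlapped for Ccnd2 and Cdk4, Ccnd3 and Cdkn1b, Cdkn1b and Ccne2, and Ccne2 and Ccne1. In KO, Ccnd2 (156 ± 24.3) stood apart from Cdk4 (43.5 ± 3.06), and 2 pairs of neighbours exchanged places but overlapped, Ccnd3 (30.5 ± 3.66) with Cdk6 (26.6 ± 3.54) and Ccne1 (8.82 ± 1.40) with Ccne2 (8.28 ± 3.01). The order depended on the length used. With the longest transcript, Ccnd3 stood above Cdk6 in both groups and, in KO, just above Cdk4 (means 69.4 and 68.8), Ccne1 stood above Ccne2 in both groups, and Cdk2 (12.5) stood above both E cyclins in KO (11.7 and 9.62).

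The same arithmetic gave the balance of D cyclins to their kinases, a measure chosen after the values were seen and given without a test. Like the shares, its values depend on the length used. The summed D cyclin level divided by that of Cdk4 and Cdk6 was 0.998, 0.880 and 1.16 in control replicates 1, 2 and 3, against 2.20, 2.68 and 3.19 in KO replicates 1, 2 and 3. The ranges did not overlap, which follows from the 2 sums, since each already separated the groups, in opposite directions. The D cyclin level divided by the E cyclin level was 2.95, 2.53 and 6.12 in control and 7.58, 11.3 and 15.9 in KO, with control replicate 3 again nearest to KO. Cdkn1b over Cdk2 was 2.19, 2.29 and 4.07 in control and 2.48, 3.75 and 3.39 in KO, and the groups overlapped.

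**Figure D4:**
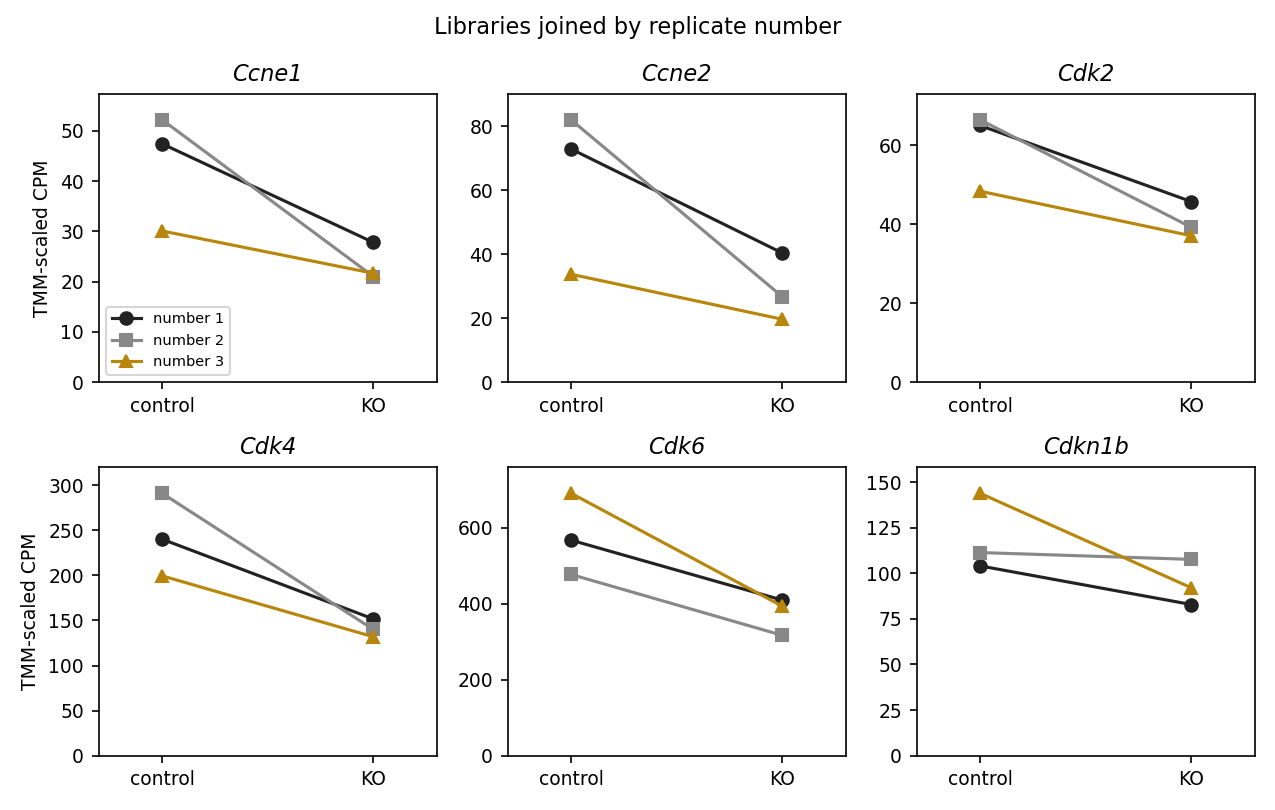
TMM-scaled CPM of 6 genes with control and KO libraries of equal replicate number joined by a line (axes start at 0). All 3 lines fall for each gene, and control replicate 3 is the lowest control library for Ccne1, Ccne2, Cdk2 and Cdk4 and the highest for Cdk6 and Cdkn1b.

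Compared within replicate numbers, all 10 genes moved in 1 direction in each of the 3 pairs, 3 upward (Ccnd1, Ccnd2 and Ccnd3) and 7 downward, including both genes that were not called. Of all tested genes, 74.6% moved in 1 direction in all 3 pairs. The pair numbered 3, the only pair with Y-linked counts, gave log2 differences of 0.90 for Ccnd2, −0.60 for Cdk4, −0.81 for Cdk6 and −0.47 for Ccne1 from 1 library each. The libraries numbered 1 and 2 alone called 8 of the 10 genes, again 2 higher and 6 lower. Over all genes that fit called 6351 of 14329, 3248 higher and 3103 lower.

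Other genes of the G1 pathway were read from lists written from their textbook roles. Of 48 such genes 46 were tested, 25 were called lower and 2 higher. Among all tested genes 22.9% were called lower and 23.2% higher, the background for each list below. Among the other inhibitors, Cdkn1a, the p53-induced p21 gene, was higher (304 ± 12.96 and 421 ± 49.3 CPM, SD, n = 3) by a log2 fold change of 0.47 (edgeR adjusted p = 0.0146), a call lost without control replicate 1 (adjusted p = 0.0838), control replicate 3 (0.064) or KO replicate 3 (0.0664) and with the libraries numbered 1 and 2 alone (0.082). Cdkn2d, the p19 gene of the INK4 family, held 94.2 ± 8.39 and 79.2 ± 4.70 CPM and was not called (adjusted p = 0.0964). Cdkn1c lay under 1 CPM in every library, and Cdkn2a and Cdkn2b were too low to be tested.

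In the list of RB family, E2F and DP factors, 6 of 11 genes were called lower (22.9% of all tested genes) and none higher. The median log2 fold change was −0.68. Rb1, the retinoblastoma gene, fell (137 ± 8.31 CPM in control cells, 74.2 ± 12.5 CPM in KO cells, SD, n = 3), with a log2 fold change of −0.89 (edgeR adjusted p = 0.00139), and Rbl1, which encodes its relative p107, fell as well (−0.68, adjusted p = 0.00585). The activating factors E2f1 (−1.22, adjusted p = 0.0033) and E2f2 (−0.94, adjusted p = 0.00157) and the E2F partners Tfdp1 (−0.88) and Tfdp2 (−1.52) were the others called. Rbl2, the p130 gene, which works with E2F4 in resting cells, had a log2 fold change of 0.36 (adjusted p = 0.117) and was called higher with the replicate block (adjusted p = 0.0243). E2f3 (−0.34, adjusted p = 0.11) and E2f6 (−0.47, adjusted p = 0.0647) were called lower with the block (adjusted p = 0.0487 and 0.0149), and E2f4 and E2f5 were not called in either fit. Without control replicate 3, 9 of the 11 genes were called lower, E2f4 among them, and Rbl2 higher. Tfdp1 shares 16.8% of its 50-base stretches with other genes, mainly Gm7390.

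All 10 S phase entry targets of E2F were called lower, against 22.9% of all tested genes, with a median log2 fold change of −1.15. Only 6 of them were called without KO replicate 2 or without KO replicate 3, where Pcna, Rrm2, Tyms and Cdc25a were not. Without control replicate 1 or control replicate 2 there were 7. Cdc6, which loads the replicative helicase, fell from 65.2 ± 19.5 to 27.4 ± 9.16 CPM (SD, n = 3; −1.25, edgeR adjusted p = 0.0068), and Tk1, a thymidine kinase gene, from 73.0 ± 14.7 to 29.3 ± 7.91 CPM (−1.32, adjusted p = 0.00177). Pcna, the sliding clamp gene, had the least support (−0.65, adjusted p = 0.0468): its call was lost in 5 of the 6 fits without 1 library, all but that without control replicate 3, and when libraries were scaled by their size alone. Of its 50-base stretches 19.1% occur elsewhere as well, mainly in Pcna-ps2. The summed level of these 10 genes was 1744, 2087 and 1094 CPM in control replicates 1, 2 and 3, against 1085, 743 and 651 CPM in KO replicates 1, 2 and 3. Control replicate 3 thus lay beside KO replicate 1 in S phase transcripts as it did in the E cyclins. What part a different mix of cell cycle phases has in the E cyclin and kinase levels was not tested.

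All 5 later cyclins and Cdk1 transcripts were called lower too, with a median of −1.18; Cdk1, the mitotic kinase gene, fell from 144 ± 40.3 to 50.3 ± 15.9 CPM (SD, n = 3; −1.52, edgeR adjusted p = 0.00213). Of the CDK-activating kinase, which phosphorylates CDK2 and CDK4, the cyclin gene Ccnh (−0.70, adjusted p = 0.00508) and the assembly factor gene Mnat1 (−0.75, adjusted p = 0.00191) fell, while Cdk7 held 41.7 ± 3.79 and 41.3 ± 2.37 CPM (adjusted p = 0.939).

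Among 8 genes for the turnover of p27 and G1 cyclins, 2 were called lower, a share near the 22.9% of all tested genes. These were Skp2, the F-box protein gene that directs p27 to degradation (21.1 ± 4.14 and 11.4 ± 2.95 CPM, SD, n = 3; −0.88, edgeR adjusted p = 0.0127), and its cofactor Cks1b (96.1 ± 25.4 and 33.7 ± 8.60 CPM; −1.51, adjusted p = 0.00134). The call of Skp2 was lost without KO replicate 2 (adjusted p = 0.0516). Skp1, Cul1, Rbx1, Cdc34, Fbxw7 and Ambra1, the last of which directs D cyclins to degradation, were not called. Cdc34 was called lower with the libraries numbered 1 and 2 alone (−0.41, edgeR adjusted p = 0.0326) and without control replicate 3 (−0.47, adjusted p = 0.0156). Of 6 upstream regulators only Foxo4 was called (25.7 ± 5.16 and 55.4 ± 8.62 CPM; 1.104, adjusted p = 0.00168). Foxo1 and Foxo3, of the same family of factors that activate Cdkn1b, the kinase gene Gsk3b, and Pim1 and Pim2 were not called.

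**Figure D5:**
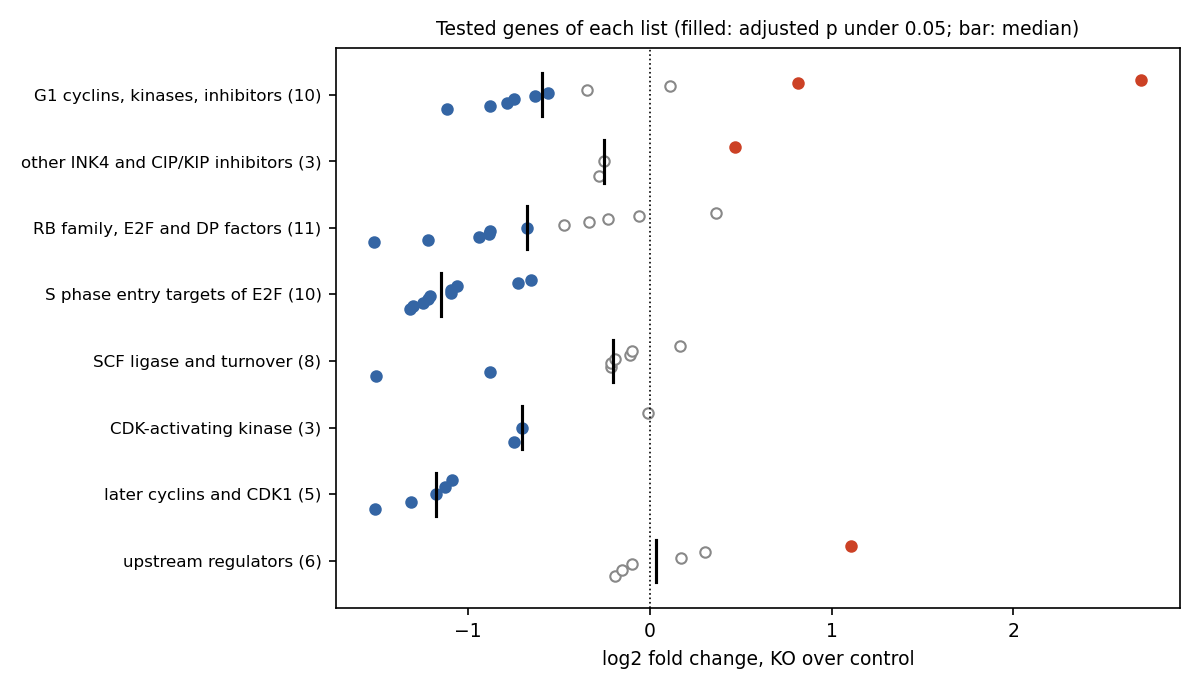
Log2 fold change of each tested gene in the 8 lists (number of tested genes in brackets), filled where the adjusted p-value lies under 0.05 (red higher, blue lower), with a bar at the list's median. All S phase targets and all later cyclins lie to the left of 0, and Ccnd1, Ccnd2, Cdkn1a and Foxo4 are the only genes called higher.

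The nearest tested gene on each side was also read for each of the 10 genes. Of these 20 neighbours 11 were called, 7 higher and 4 lower, which is near the 46.1% called among all tested genes. Beside Cdk2, which fell, both neighbours rose, Rab5b by a log2 fold change of 1.14 (edgeR adjusted p = 0.000634) and Pmel by 1.04 (0.0362). Cdkn2c, which also fell, lies between Rnf11 (0.97, adjusted p = 0.000842) and Faf1 (−0.88, adjusted p = 0.000587). Trp53inp1, a p53 target gene that lies 16971 bases from Ccne2, rose from 112 to 345 CPM (1.62, adjusted p = 0.00245). Oraov1 was the neighbour of Ccnd1 that rose with it, and beside Ccnd2 the antisense gene 9330179D12Rik was called lower at under 1 CPM in both group means (−1.78, adjusted p = 0.0242).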

How the data were processed

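The deposited table held whole-number read counts per gene symbol that the authors left unnormalized, 1 column for each of the 6 libraries. Total RNA was taken with a column kit, per the labels; the submitters' processing notes name STAR, featureCounts, DESeq2 and the build mm10, without versions. Annotation, strand setting and filters are not given in the sources used here. Columns were matched to samples by description (0 unmatched). The 10 genes, the lists and the named genes (Rtf1, the 10 and all list members) were chosen with earlier results of these data known.

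Counts were fitted in edgeR 4.0.16 (R 4.3.3, quasi-likelihood test, TMM factors, filterByExpr, no covariate; 14268 of 31017 genes tested, biological coefficient of variation 0.212) over all genes and tested on simulated data. SE is the absolute log2 fold change over the square root of F. Alternatives were DESeq2 1.42.0, other scalings and filters, the replicate block, the libraries numbered 1 and 2, and each library left out. Levels per kilobase used merged exons of GENCODE M21 (GRCm38); permutation tests used scipy 1.17.1. Reads have no stated molecular identifiers.

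Libraries of equal replicate number deviated together from their group means (correlations across genes 0.27, 0.13 and 0.38), so the numbers were read as pairs. However, control replicate 2 correlated more with KO replicate 1 (0.20) than with KO replicate 2, and the labels leave the meaning of a number unstated. The main fit and the permutation tests did not use these pairs. Only the replicate block, given as an alternative fit, did.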

Additional observations from a re-analysis of the deposited data

How the results depend on the processing

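Of 150 alternative fits of the 10 genes, 134 kept direction and call, 13 lost a call, 2 gained one (Cdkn1b) and 1 reversed (Ccnd3, −0.014 without control replicate 1). With 1 library left out, between 3 and 8 of the 10 genes were called, 1 to 6 of them lower. Without KO replicate 2 the 3 were Ccnd1, Ccnd2 and Cdk4, and without control replicate 2 or KO replicate 3 there were 5. The fits without control replicate 3 or KO replicate 1, and that with the libraries numbered 1 and 2 alone, called 8. The cause was not tested. Over all tested genes, 4460 of 14349 were called without KO replicate 2, 5038 of 14888 without KO replicate 3 and 5827 of 14491 without control replicate 2. The fits without control replicate 1, control replicate 3 and KO replicate 1 called 5221 of 14991, 7050 of 14347 and 6151 of 14939. That with the libraries numbered 1 and 2 alone called 6351 of 14329. With 1 library left out, 2170 to 3700 of all genes were called lower, and 1 to 2 list genes higher. The replicate block called 9 of the 10 genes, 7628 of all genes against 6574, and otherwise changed the calls of Rbl2, E2f3 and E2f6 alone among list genes. Scaling, filter and DESeq2 changed no call of the 10.

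Dividing by the longest transcript, or not at all, moved the KO minus control difference in the Ccnd1 share from 0.384 to 0.303 and 0.195 percentage points. The Cdk6 share difference ran from −2.03 to 6.47 with 1 library left out. Directions of uncalled list genes reversed for E2f5 (0.026) and Cdk7 (0.076) with library size only, for Cdk7 also without control replicate 2 (0.034) or KO replicate 3 (0.028), for Skp1 (−0.029) and Foxo3 (0.044) without control replicate 3, and for Foxo1 (0.071) with the libraries numbered 1 and 2. With 1 library left out, Ccnd3 ran from −0.014 to 0.19, Cdk7 from −0.14 to 0.034, Skp1 from −0.029 to 0.32 and Foxo3 from −0.23 to 0.044.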
